A study of Homo sapiens and Mus musculus with 13 samples.

Results

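The effect of RNase A on the map of RNA:DNA hybrids was examined in NT2, a pluripotent cell line from a human testicular carcinoma, by setting the DRIP-seq peak list of RNase A treated material beside that of untreated material. Both lists came from genomic DNA cut with the same mix of restriction enzymes, HindIII, EcoRI, BsrGI, XbaI and SspI, here called digest A. A second untreated NT2 library, cut with BamHI, NcoI, ApaL1, NheI and PvuII (digest B), was used to ask whether an untreated peak was seen again. These are 2 of the 13 samples of the series, plus 1 for support, and each list stands for 1 sample. The dose and time of the RNase A treatment, and whether the libraries came from the same culture, are not stated in the sources used here.

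In an R-loop, a nascent RNA pairs with its DNA template and displaces the other DNA strand. DRIP-seq recovers such hybrids from cut genomic DNA with an antibody and sequences the DNA. RNase A cleaves single-stranded RNA and, at low salt, also RNA in duplexes, whereas RNase H degrades the RNA strand of a hybrid, which makes an RNase H library the negative control of the assay. Because DNA is cut before recovery, a DRIP peak can be as wide as the restriction fragment that holds the hybrid.

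All autosomal peaks were used: 58086 in the RNase A list and 65166 in the untreated digest A list, leaving out 1739 and 1960 peaks on other sequences. An untreated peak that no RNase A peak touched by at least 1 bp is called lost, one that was touched is called kept, an RNase A peak that no untreated digest A peak touched is called gained, and the remaining RNase A peaks are called shared. These words describe membership of the lists only. The lists hold positions on hg19 and no heights or read counts, so the depth of each library is unknown, and a peak missing from a list is one that was not called there. With 1 list per condition there was no replicate check and no test between conditions, and the treatment and the library, which changed together, cannot be told apart. Intervals of shares in parentheses are exact Clopper-Pearson 95% intervals. Those of median lengths are 95% intervals from ranked lengths. Those of log2 count ratios are transformed from the exact interval of the RNase A share of both counts. All cover counting error only. Peaks near each other are not independent. No gene names are given, because the annotation at hand was of another build than the peaks.

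Lost and gained peaks made up nearly equal shares of their lists. Of the 58086 RNase A peaks, 19874, or 34.2% (33.8 to 34.6%), were gained, and of the 65166 untreated peaks, 22427, or 34.4% (34.1 to 34.8%), were lost. The RNase A list had fewer but longer peaks, with a median of 1735 bp and 145.99 Mb covered, against 1216 bp and 132.4 Mb in the untreated list. Few peaks lay close to the 1 bp limit. Of the kept peaks, 274 (median length 547.5 bp) shared at most 50 bp with RNase A peaks, and 229 lost peaks (median 744 bp) ended within 50 bp of an RNase A peak. On the other side, 113 gained peaks (median 846 bp) ended within 50 bp of an untreated peak, and 154 shared RNase A peaks (median 841 bp) overlapped untreated peaks by at most 50 bp.

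Lost and gained peaks differed in how often the second untreated library contained them. Part of this contrast is given by the definitions, since lost peaks were called in an untreated NT2 list and gained peaks were not. Each set is therefore set beside the remainder of its own list. Of the 22427 lost peaks, 13646, or 60.8% (60.2 to 61.5%), were present in digest B, against 85.3% (84.995 to 85.7%) of kept peaks. Of the 19874 gained peaks, 3815, or 19.2% (18.7 to 19.8%), were present in digest B, against 88.6% (88.3 to 88.9%) of shared RNase A peaks. Thus 20.9% of all untreated peaks were seen in both untreated libraries and not after RNase A, and 27.6% of all RNase A peaks were seen in neither untreated library. Set against digest A alone, the second untreated library lacked 23.1% of the untreated peaks. In reverse, 33956 of its 47829 autosomal peaks overlapped the digest A list, and the remainder would count as gained by the same rule. Digest B had a median of 2848 bp and covered 189.4 Mb, against 1735 bp and 145.99 Mb for RNase A. A list with longer peaks can touch more peaks by size alone, so the 23.1% and the lost share are not directly comparable. Among untreated peaks that digest B held, 27.2% (26.8 to 27.6%) were lost, and among those that it lacked, 58.3% (57.6 to 59.1%) were lost.

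Lost peaks were short. Their median length was 645 bp (interval 636 to 655 bp), with quartiles at 350 and 1217 bp, while kept peaks had a median of 1721 bp (1698 to 1742 bp). Lost peaks supported by digest B were longer than unsupported ones, with medians of 837 and 455 bp, and remained shorter than kept peaks present in digest B (1990 bp). Across deciles of length, the lost share was 67.8% among peaks of 101 to 301 bp, 36.6% among peaks of 917 to 1216 bp and 4.04% among peaks of 4641 bp or more. Restricting the count to untreated peaks that digest B also held gave 62.5%, 32.7% and 3.97% in the same deciles. The dependence on length was therefore present in peaks seen in both untreated libraries. It was not particular to the RNase A list. Digest B held 2893 of the 6549 untreated peaks in the shortest decile and 6450 of 6516 in the longest. A longer peak also has more room to be touched by 1 bp.

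Gained peaks were less confined to short lengths. Their median was 1113 bp (1095 to 1134 bp), against 2096 bp for shared RNase A peaks, and those absent from digest B had a median of 1148 bp. The gained share was 64.4% in the shortest decile of RNase A peaks (101 to 488 bp) and 12.6% (11.7 to 13.4%) in the longest decile (5436 bp or more). Of the longest untreated peaks 263 of 6516 were lost, whereas of the longest RNase A peaks 729 of 5808 were gained. The gained share and the lost share refer to deciles with different limits, since the RNase A list as a whole was longer.

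**Figure D1:**
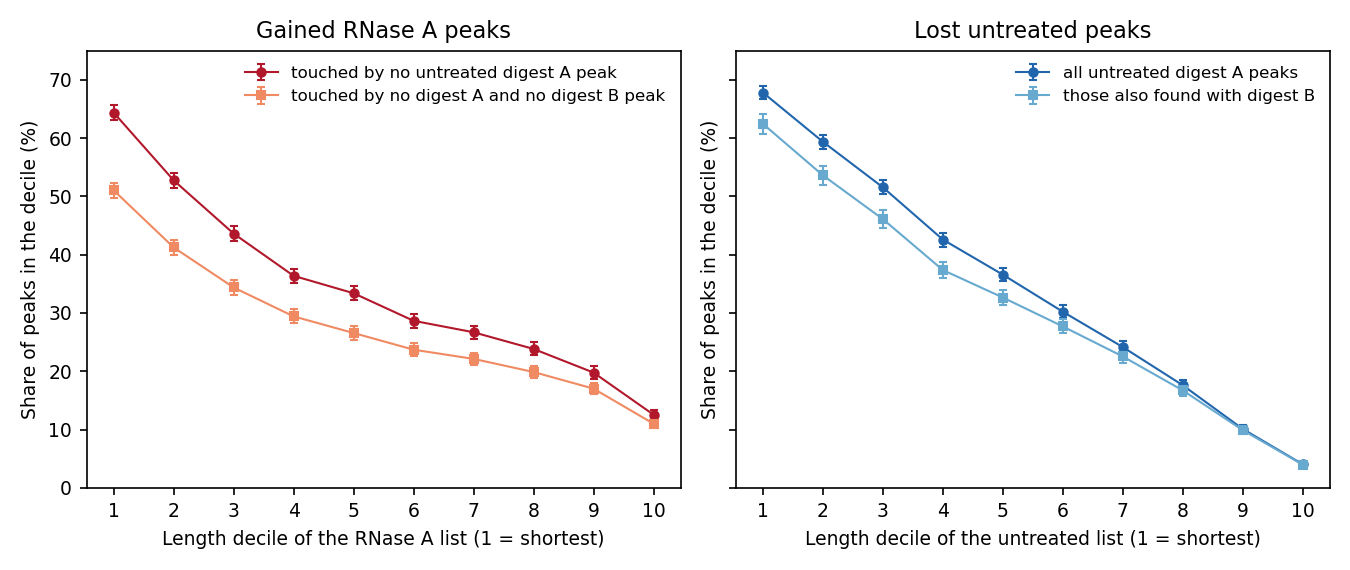
Share of peaks (y axis, %) that were gained (left) or lost (right) in each decile of peak length (x axis, 1 is the shortest), with exact 95% intervals as bars. Both shares are lower at each longer decile; the gained share ends at 12.6% and the lost share at 4.04% in the longest decile, and the curves for peaks checked against digest B run below the others at short lengths.

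Kept peaks had a median of 1721 bp and shared RNase A peaks one of 2096 bp, but peaks in 1-to-1 pairs had like lengths. In 19409 cases, 45.4% of kept peaks, a kept peak and an RNase A peak touched each other and no other peak. The RNase A peak of such a pair was 0.972 times as long at the median, being the longer of the pair in 44.7% of cases. The digest B peak of such a pair, from another enzyme mix, was 1.78 times as long as the digest A peak. Starts lay within 50 bp of each other in 20.2% of the pairs with RNase A and in 4.18% of the pairs with digest B, and ends in 17.7% and 4.69%. Of the kept peaks, 88.5% had at least 50% of their length covered by RNase A peaks. A single RNase A peak joined 2 or more untreated peaks in 25.6% of shared RNase A peaks, and 15.2% of kept peaks touched 2 or more RNase A peaks. Median lengths in the 1-to-1 pairs were 1673 bp for RNase A and 1627 bp for untreated peaks, against 1735 and 1216 bp in the whole lists. Pair by pair, the RNase A peak was thus not longer at the median, though its median length was slightly larger.

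The density of peaks around a region was taken as the number of peaks of the same list in its 1 Mb bin. The lost share was 45.03% (44.3 to 45.8%) where the untreated list had 1 to 29 peaks per 1 Mb and 23.9% (23.2 to 24.5%) where it had 84 to 165. Peaks in dense bins were also longer, with a median of 944 bp in the sparsest and 1688 bp in the densest quartile. Within each quartile of length the lost share was still lower in dense bins. Among peaks of 101 to 571 bp it was 67.2% in the sparsest and 53.2% in the densest bins, and among peaks of 2531 bp or more it was 15.7% and 5.52%. Length thus separated lost from kept peaks more than density did.

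The gained share was also lower where the RNase A list was denser. The gained share was 40.9% (40.1 to 41.6%) with 1 to 25 RNase A peaks per 1 Mb and 27.3% (26.5 to 28.01%) with 79 to 148. Among RNase A peaks of at most 884 bp it was 56.3% in the sparsest and 54.0% in the densest bins, with intervals that overlap (54.98 to 57.7% and 51.99 to 55.9%). Among RNase A peaks of the longest quartile it was 26.2% in the sparsest and 13.3% in the densest bins. By the density of digest B peaks, the gained share was 49.3% with 0 to 21 per 1 Mb and 21.7% with 53 to 101, and the lost share was 44.1% with 0 to 23 and 25.1% with 54 to 101. Digest B held 76.9% of digest A peaks, and gained peaks touch no digest A peak by definition. Part of their gap in digest B density is thus given. Gained peaks stood in sparser surroundings by this measure, with 28 digest B peaks per 1 Mb at the median against 40 for shared RNase A peaks. For lost and kept peaks these medians were 32 and 40. Bins with 5 or fewer digest B peaks held 9.67% of gained peaks, 3.07% of lost peaks and 1.83% of kept peaks.

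**Figure D2:**
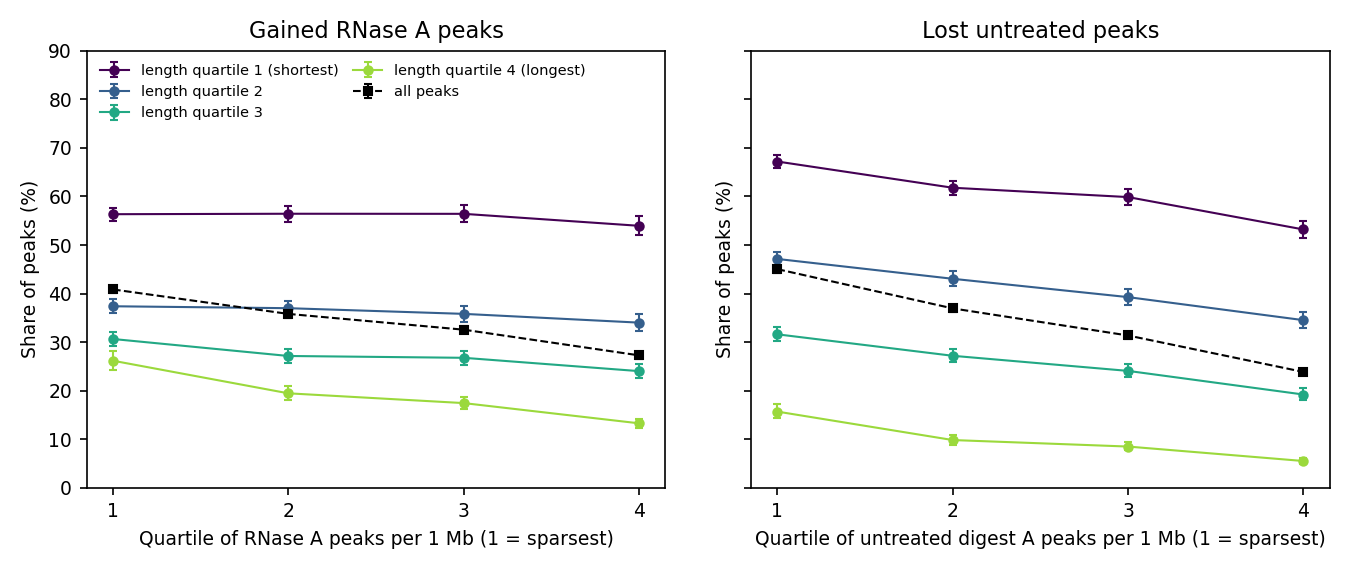
Share of RNase A peaks that were gained (left) and of untreated peaks that were lost (right), in %, by quartile of the number of peaks of the same list per 1 Mb (x axis, 1 is the sparsest). Lines are quartiles of peak length, the dashed line is all peaks, and bars are exact 95% intervals; the lost share is lower in denser bins at every length, from 67.2% to 53.2% for the shortest peaks.

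Lost and gained peaks were set beside 3 lists that played no part in defining them. DRIPc-seq sequences the RNA strand of the hybrids and was made from NT2 material cut with digest A, for which the labels name no RNase. Of the lost peaks, 52.0% (51.4 to 52.7%) touched a DRIPc peak, against 66.3% (65.9 to 66.8%) of kept peaks. At matched length this gap was small: 41.2% of lost and 41.2% of kept peaks in the shortest quartile, and 79.4% and 82.8% in the longest. Of the gained peaks, only 22.1% (21.5 to 22.7%) touched a DRIPc peak, against 69.6% (69.1 to 70.0%) of shared RNase A peaks. In the longest quartile of RNase A peaks the values were 16.4% and 78.7%. Lost peaks thus carried DRIPc signal about as often as kept peaks of like length, and gained peaks did so less often than shared ones at every length.

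K562, a human leukaemia line cut with the same enzymes, separated lost from kept peaks at every length. Of the lost peaks, 28.4% (27.8 to 29.0%) touched a K562 peak, against 68.9% (68.5 to 69.3%) of kept peaks. In the longest quartile these shares were 45.7% and 83.4%, and in the shortest 19.8% and 44.5%. For gained peaks the share was 16.8% (16.3 to 17.4%), against 71.2% (70.7 to 71.6%) for shared RNase A peaks. A set of 2617 lost peaks, 11.7% of them, was present in digest B, DRIPc and K562, while 46.3% of kept peaks were. Among gained peaks, 467, or 2.35%, were present in the same 3 lists. In contrast, 51.1% (50.4 to 51.8%) of gained peaks and 19.3% (18.8 to 19.8%) of lost peaks were in no other human list; their medians were 1021 and 388 bp.

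The RNase H list, the negative control, met gained peaks often and lost peaks rarely. It held 8710 autosomal peaks and touched 10.9% (10.4 to 11.3%) of gained peaks, against 7.33% (7.07 to 7.60%) of shared RNase A peaks. It touched 1.03% (0.902 to 1.17%) of lost peaks, against 6.998% (6.76 to 7.24%) of kept peaks. The overlap of gained peaks grew with length, being 5.38% in the shortest quartile and 29.0% (27.2 to 30.8%) in the longest, where shared RNase A peaks had 15.8% (15.2 to 16.5%). In the longest decile, 284 of 729 gained peaks (39.0%) and 6 of 263 lost peaks (2.28%) were in the RNase H list. Gained peaks absent from digest B were found after RNase H in 12.7% of cases, and gained peaks present in digest B in 3.07%. Both of these treated lists come from material of the same cell line and enzymes, and whether they share a preparation is not stated in the sources used here.

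**Figure D3:**
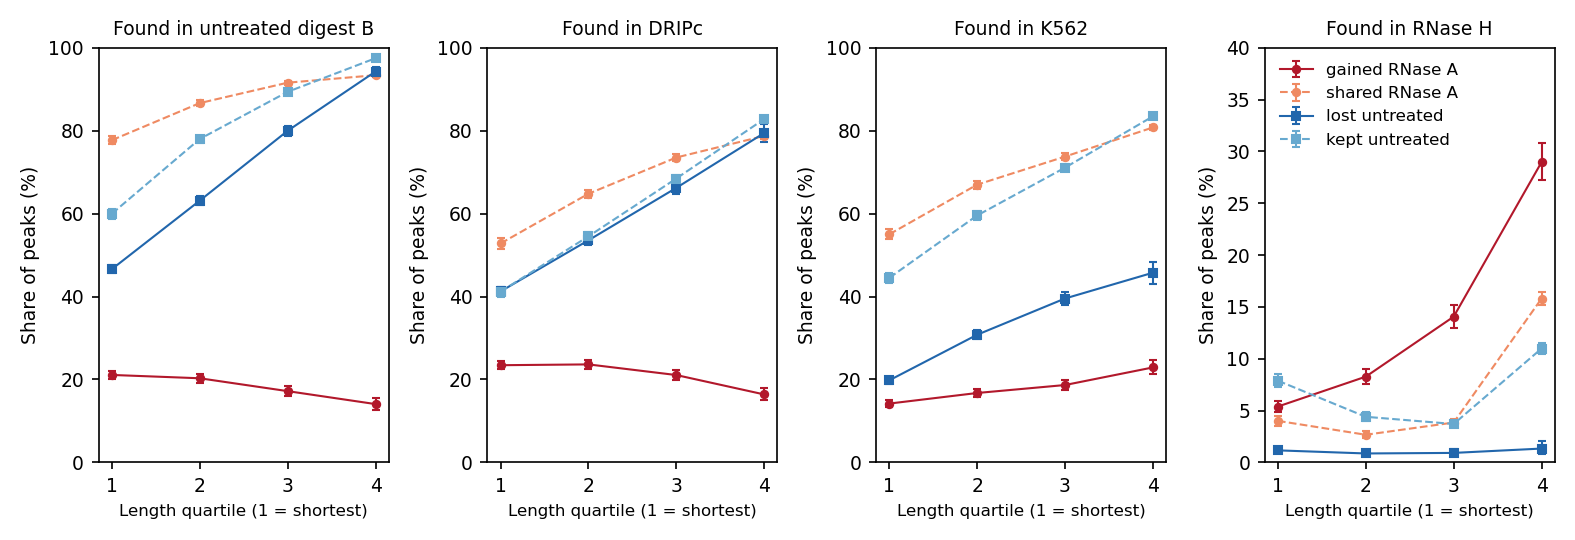
Share of gained and shared RNase A peaks and of lost and kept untreated peaks (y axis, %) that touch a peak of digest B, DRIPc, K562 or RNase H, by quartile of length within their own list (x axis), with exact 95% intervals. Gained peaks lie lowest in digest B, DRIPc and K562 and highest in RNase H at the 3 longer quartiles, reaching 29.0%; the RNase H panel has its own scale.

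Chromosome arms differed widely. Across the 40 autosomal arms with at least 50 untreated peaks, the lost share had a median of 32.4% and ran from 10.6% on 16p to 64.2% on 6q. The exact interval lay above the value for all autosomes (34.4%) on 13 arms and below it on 17. To see what length and density give by arithmetic alone, each peak was assigned the lost share of its length decile and density quartile over all autosomes. The shares so obtained for the arms ran only from 23.3% to 46.1%, a range of 22.8 percentage points against 53.6 observed, and lay inside the exact interval on 9 arms. The observed range was thus wider than the one that lengths and densities give. The amount of DNA on each arm was not measured in the lists used here.

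The long arm of chromosome 6 had the highest lost share, 1327 of 2067 or 64.2% (62.1 to 66.3%), where length and density give 39.4%. It was followed by 4q with 54.2% (51.4 to 57.0%) and 13q with 48.2% (44.7 to 51.6%), where length and density give 44.7% and 44.1%. On 6q the loss extended along the arm: all 11 stretches of 10 Mb with 20 or more untreated peaks lay above 34.4%, with values of 52.5 to 70.4%. All 15 stretches of 4q lay above it too, between 34.8 and 59.8%, whereas the 8 stretches of 13q ran from 22.7 to 83.98%. Of 6q peaks present in digest B, 866 of 1541, or 56.2% (53.7 to 58.7%), were lost. The short arm of chromosome 6 had 46.1% lost, and of the 263 lost peaks in the longest decile, 34 lay on 6p. These were 25.4% of the 134 untreated peaks of that decile on 6p, against a lost share of 4.04% for the decile over all autosomes.

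The lowest lost shares were on chromosome 16, with 139 of 1314 or 10.6% (8.97 to 12.4%) on 16p and 113 of 1041 or 10.9% (9.03 to 12.9%) on 16q. Length and density give 29.7% and 34.9% there. Next were 19p with 15.1% (13.5 to 16.7%) and 12p with 15.3% (12.7 to 18.3%). In every 10 Mb stretch of 16p, 16q and 12p with 20 or more untreated peaks the lost share was below 34.4%, with highest values of 20.7, 19.4 and 27.5%. On 19p, 2 of 3 stretches were below it.

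The 3 arms with the highest gained shares had lost shares below that of all autosomes. On 12p, 799 of 1298 RNase A peaks, or 61.6% (58.8 to 64.2%), were gained, on 16q 53.3% (50.8 to 55.7%) and on 9p 50.8% (46.7 to 54.8%). Length and density give 34.2, 31.9 and 37.04%. The lowest gained share was that of 6q, with 20.3% (17.7 to 23.1%), where length and density give 40.7%. Not every arm lay at opposite ends of both shares: on 13q, 46.2% (42.5 to 49.9%) of RNase A peaks were gained and 48.2% of untreated peaks lost. Each of the 4 stretches of 10 Mb on 12p had a gained share between 58.4 and 67.6%. Absence from digest B did not alter this order at its ends: RNase A peaks gained and absent from digest B made up 52.6% on 12p, 45.5% on 16q and 17.2% on 6q. Because the lost and the gained share of an arm both depend on how many peaks each list has there, they are not independent of each other.

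**Figure D4:**
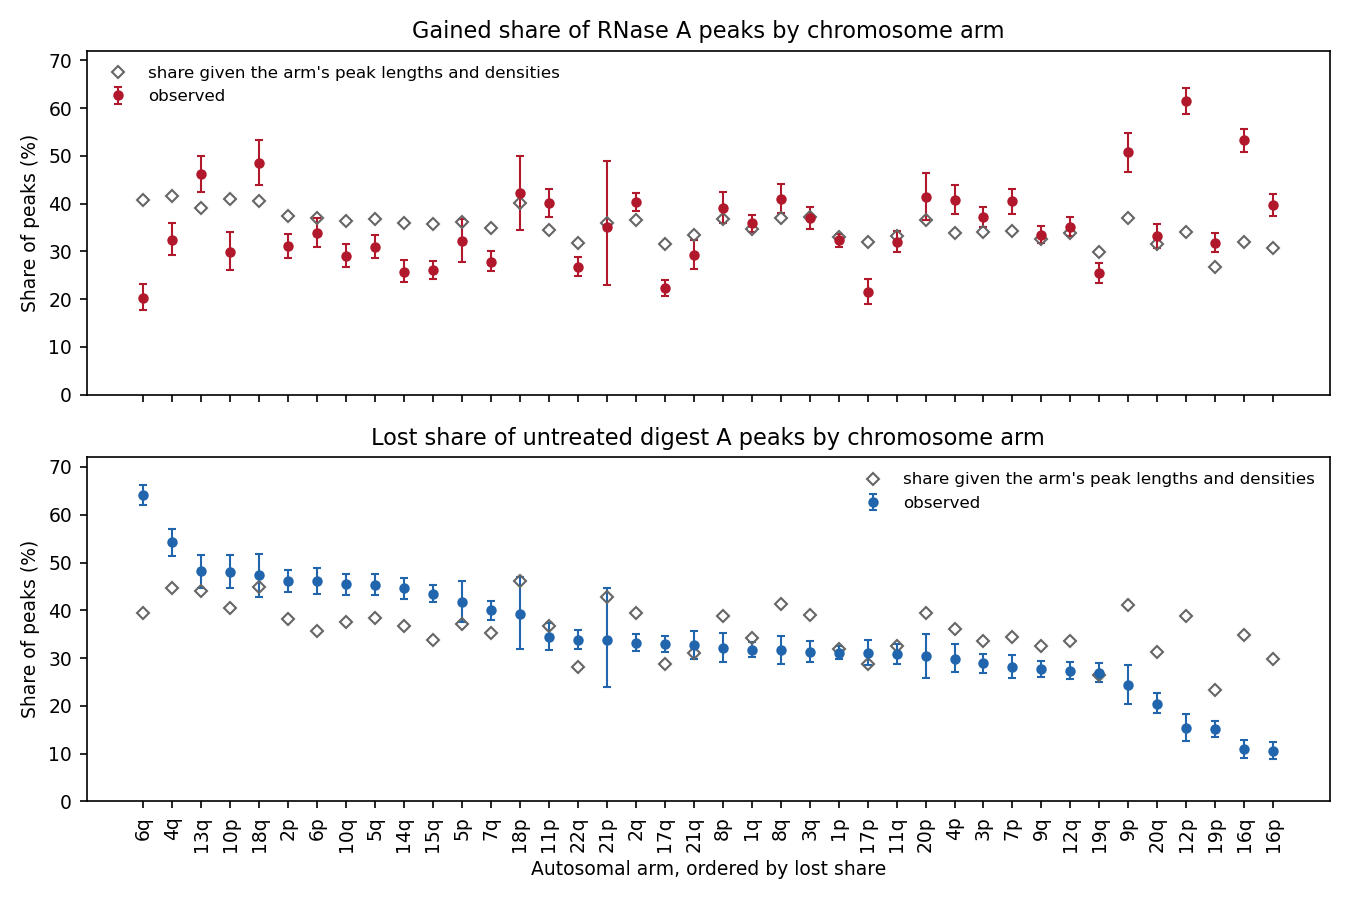
Gained share of RNase A peaks (top) and lost share of untreated digest A peaks (bottom) for 40 autosomal arms, ordered by lost share, in %, with exact 95% intervals; open diamonds give the share implied by the lengths and densities of the arm's peaks. 6q stands at 64.2% lost and 20.3% gained, and 12p at 15.3% lost and 61.6% gained, both far from their diamonds.

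The counts behind these shares differed between the lists. On 6q the RNase A list held 872 peaks and the untreated digest A list 2067, and digest B held 1676. On 12p the RNase A list held 1298 peaks, the untreated digest A list 673 and digest B 534. Log2 ratios of peak counts were centred on their median over arms, which for RNase A over untreated was -0.12 before centring. RNase A over untreated was 1.07 (0.94 to 1.21) on 12p, 0.79 (0.68 to 0.90) on 16q and 0.55 (0.37 to 0.73) on 9p. It was -1.12 (-1.24 to -1.01) on 6q, -0.57 (-0.70 to -0.44) on 4q and -0.48 (-0.64 to -0.32) on 10p. The SD of this log2 ratio over the 40 arms was 0.38, against 0.16 for digest B over digest A, the pair of untreated lists. It was 0.36 for K562, 0.49 for DRIPc and 0.78 for RNase H over the same list. These 3 lists are unlike the RNase A list: K562 is another cell line and DRIPc sequences the RNA strand. The RNase H list held only 8710 autosomal peaks, so its counts per arm carry more counting error. A spread of this size was thus seen in such other lists, but not between the untreated NT2 DRIP lists.

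The other lists were set side by side with these values, and all such ratios share the untreated digest A list. RNase H over untreated was 2.04 on 12p, 1.14 on 16p, 1.00 on 16q and -1.12 on 6q, on the same centred log2 scale. Digest B over untreated was 0.07 on 12p, -0.10 on 16p, -0.04 on 16q and 0.10 on 6q. K562 over untreated was -0.50 on 12p, 0.68 on 16p, 0.70 on 16q and -0.59 on 6q. DRIPc over untreated was 0.33 on 12p, -0.74 on 16p, -0.43 on 16q and 0.38 on 6q. On the centred scale the RNase A and RNase H values had the same sign on every arm except 21p, 20p, 3p, 2q, 21q and 1p. Since both are over the same untreated counts, part of this is given by arithmetic. On 21p, with 57 RNase A and 86 untreated peaks, RNase A over untreated was -0.47 and RNase H over untreated was 1.99. The RNase A and RNase H values were 0.16 and -0.41 on 20p, 0.10 and -0.33 on 3p, 0.11 and -0.04 on 2q, -0.08 and 0.22 on 21q, and -0.01 and 0.25 on 1p. With digest B in place of digest A as the untreated list, RNase A had a log2 ratio of 0.96 on 12p and -1.26 on 6q, still the highest and lowest of the 40 arms.

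**Figure D5:**
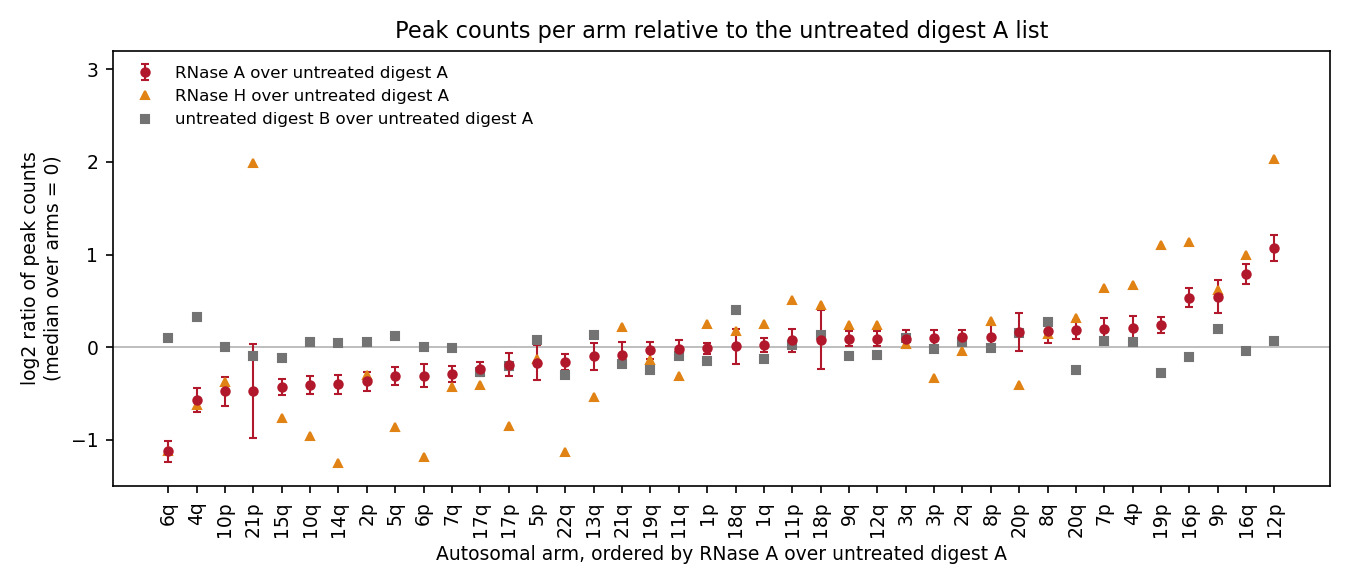
Log2 ratio of peak counts per arm relative to the untreated digest A list (y axis, median over arms set to 0) for RNase A (with exact 95% intervals), RNase H and untreated digest B; arms (x axis) are ordered by the RNase A ratio. RNase A runs from -1.12 on 6q to 1.07 on 12p, while digest B stays between -0.30 and 0.40.

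Within arms, the balance also shifted from 1 Mb to the next. Of 1890 bins of 1 Mb with at least 10 peaks over both lists, 183 (9.68%) had a log2 count ratio of RNase A over untreated, with 1 added to both counts, that was 1 or more above the median bin, and 179 (9.47%) had one 1 or more below it. On 12p, 17 of 29 bins were higher and 0 were lower, and on 6q 34 of 74 bins were lower and 0 were higher. Bins that were higher in the RNase A list held a median of 20 RNase A, 7 untreated digest A and 8 digest B peaks. Bins that were lower held a median of 5, 20 and 17. The 3 bins with the largest excess held 47 RNase A and 0 untreated peaks (5 to 6 Mb of chromosome 12), 37 and 0 (34 to 35 Mb of chromosome 1) and 35 and 0 (22 to 23 Mb of chromosome 19), and digest B had 0 peaks in each of them. The 3 bins with the largest deficit held 2 RNase A and 29 untreated peaks (133 to 134 Mb of chromosome 6), 1 and 18 (147 to 148 Mb of chromosome 6) and 4 and 39 (61 to 62 Mb of chromosome 1), with 24, 14 and 19 digest B peaks.

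Lost peaks often followed each other along the chromosome. After a lost peak, the next untreated peak was lost in 55.01% of cases, against 23.6% after a kept peak, and after a gained peak, the next RNase A peak was gained in 61.1% of cases, against 20.2% after a shared one. Runs of 10 or more consecutive peaks held 11.1% of lost peaks in 179 runs and 22.5% of gained peaks in 292 runs. In such runs, 68.1% of the lost peaks were present in digest B and 65.4% in DRIPc. Of the gained peaks in such runs, 6.40% were in digest B and 13.6% in DRIPc. For all lost and gained peaks, runs included, the digest B shares were 60.8% and 19.2%, and the DRIPc shares 52.0% and 22.1%. The peaks in runs thus differed in the same direction and by more. Part of this difference, too, is given by the definitions of lost and gained.

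The longest runs of lost peaks are listed here by count. The first had 48 consecutive lost peaks within 367.7 kb at chr4:20267712-20635376, of which 38 were in digest B, 42 in DRIPc and 0 in K562. The second had 33 at chr7:26438797-27561653, with 27 in digest B and 25 in DRIPc. A run of 28 lay within 125.3 kb at chr10:131636642-131761968, with 23 in digest B and 20 in DRIPc. Runs of 27 at chr14:70351977-70502839 and of 25 at chr1:5927484-6233691 had 19 and 13 peaks in digest B, and the run on chromosome 1 had 19 in K562, more than the other 4 runs. These 5 runs were in blocks where both untreated libraries, and DRIPc for most of their peaks in 4 of the 5, had called peaks.

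The longest runs of gained peaks covered more than 1 Mb each. The first held 70 consecutive gained peaks over 1216 kb at chr12:4806459-6022537, of which 1 was in digest B, 2 in DRIPc, 1 in K562 and 5 in RNase H. Others held 47 at chr19:21771073-23313193 and 41 each at chr1:34059616-35247868, chr16:48666570-49719678 and chr19:28300307-29415361. Digest B had 0 of the peaks of these 4 runs, and DRIPc had 2 on chromosome 1 and 0 on the others. K562 had 8 of the 41 peaks on 19q and 3 of the 47 on 19p. RNase H had between 1 and 5 peaks of each of the 5 runs.

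Among single regions, after peaks within 1 bp of each other were merged, the 5 longest that were lost were all present in digest B. So were 97.3% of lost and 99.1% of kept peaks in the longest decile. The longest lost region, chr17:46646148-46676264 (30.1 kb), lay 24.9 kb from the nearest RNase A peak. The 500 kb to each side of its midpoint held 43 RNase A and 67 untreated peaks. On 6p, chr6:30545220-30560733 (15.5 kb) lay in a window with 12 RNase A, 77 untreated digest A and 45 digest B peaks, and chr6:32144880-32159537 (14.7 kb) in one with 17, 66 and 43. Both were in DRIPc and K562. The remaining ones were chr1:3599456-3622140 (22.7 kb), present in DRIPc, and chr19:58876981-58891561 (14.6 kb), present in K562 and only 0.27 kb from an RNase A peak. Distance to the nearest RNase A peak was 6.65 kb at the median for all lost peaks, and 5.52 kb for those supported by digest B.

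The 5 longest gained regions were absent from digest B without exception, and none touched a DRIPc peak. Of the gained peaks in the longest decile, 12.3% were in digest B and 15.1% in DRIPc, against 94.2% and 81.2% of shared RNase A peaks. Part of the contrast in digest B is given by the definition of gained. The 5 regions were chr16:3042328-3068374 (26.05 kb), chr1:205402906-205425232 (22.3 kb), chr22:49018721-49038135 (19.4 kb), chr8:21971270-21990041 (18.8 kb) and chr1:52390904-52409069 (18.2 kb). The region on 16p was in RNase H and K562, that on 8p in RNase H, and both on chromosome 1 in K562. The region on 22q was in no other human list, and its window of 500 kb to each side held 33 RNase A, 2 untreated digest A and 0 digest B peaks. The other 4 lay among untreated peaks, with 61 to 119 in their windows. Gained peaks as a whole lay 14.9 kb from the nearest untreated peak at the median, farther than lost peaks from the nearest RNase A peak.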

How the data were processed

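The deposited lists give where each peak starts and ends, without counts, heights or p-values. How peaks were called, and against which control, is not stated in the sources used here. The submitters' processing notes name hg19 among the builds and the tools Bismark 0.7.7, BWA 0.6.1 and TopHat2 2.0.5, with no roles. The DRIPc list stands for 2 samples, per the labels.

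Overlaps of at least 1 bp were computed with strand ignored on autosomes, and the numbers of lost, supported lost and gained peaks were equal with bedtools 2.31.1. Functions were tested on simulated lists. Arms were split at the hg19 centromere gaps, placed from textbook knowledge to whole Mb, and no peak of any human list spans a boundary. Positions are counted from 1. Intervals used scipy 1.17.1 (Python 3.11.15, numpy 2.4.6, pandas 2.3.3, matplotlib 3.10.9).

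Named arms were the 3 at each end of the lost share and of the log2 ratio, named bins the 3 at each end, and named runs and regions the 5 longest of each set; 6p, 9p and other arms named beyond these were chosen after their values were seen. Comparisons and naming rules were chosen with earlier results of these data known. Gene lists planned for an hg19 annotation were not analysed here.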

Additional observations from a re-analysis of the deposited data

How the results depend on the processing

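No paired analysis was possible because each condition has 1 list and no result comes from a replicated test. A minimum cover of 50% of a peak gave 44.0% gained and 42.0% lost peaks; the longest 50% of both lists gave 32.9% and 35.1%, base pairs 36.3% and 29.8%, merging within 1 kb 37.6% and 37.4%, and digest B in place of digest A 35.1% and 39.6%. Support by digest B was 22.4% for gained and 56.8% for lost peaks at 50% cover, and 17.1% and 56.2% after merging. The median length was 769 bp for lost and 1688 bp for kept peaks at 50% cover, and 684 and 2460 bp after merging. The lost share of the sparsest minus that of the densest quartile was 21.2 percentage points, and 18.9 with digest B density. This difference was 21.7 with a window of 500 kb and 20.2 at 50% cover. The range of the lost share over arms was 53.6 points, 57.3 under 50% cover and 54.3 with digest B as the untreated list. The highest arm was 6q in each case, and with digest B the lowest arm was 19p. In bins of 5 Mb, 29 were higher and 31 lower of 552. Of the alternative values for these results, 21 were counted as moved from the main value and 4, all for density or arms, as the same. For a difference or a range such a count is loose, since no interval of its own is given here. Unknown depth limits every share, since a peak under the authors' threshold is not listed, and the interval of a share covers counting error alone.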

Other observations

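Gained peaks differed between arms in which other lists held them. The share that touched a K562 peak was highest on 21p (65% of only 20 gained peaks), 18p (37.1%) and 7q (33.7%). It was 33.0% on 16q, 29.2% on 16p and 27.2% on 19p, against 3.63% on 12p and 6.21% on 6q. The value for all autosomes was 16.8%. DRIPc peaks met 37.01% of the gained peaks on 4q and 5.62% of those on 19p, against 22.1% of all gained peaks. The K562 and DRIPc lists also differed between arms in their own counts. K562 over untreated was 0.70 on 16q, -0.50 on 12p and -0.59 on 6q on the centred log2 scale. DRIPc over untreated was 0.96 on 4q and -1.09 on 19p. Whether gained peaks differed here from all RNase A peaks of an arm was not tested. These arms were chosen after their values were seen, and no test of the differences was run.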
